A study of Mus musculus with 2 samples.

Results

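The 10 genes described here are 8 CC chemokines and 2 of their receptors that draw monocytes and osteoclast precursors into tissue: the ligands Ccl2, Ccl7, Ccl8, Ccl12, Ccl3, Ccl4, Ccl6 and Ccl9, and the receptors Ccr1 and Ccr2. They were taken by symbol from the feature lists of 2 single-cell RNA libraries of mouse alveolar bone, and all 10 were found among 56893 distinct gene symbols. The study set C57BL/6J mice aged 6 to 8 weeks with a coil spring pulling the upper right first molar at a force of 25 g against mice with the spring attached but not active. On day 7 the spring was removed and that molar extracted in both groups, and bone up to 1 mm from its socket was pooled from 6 mice per group (12 mice in all), digested for 60 min and freed of red cells. Nothing in the labels says which library is force and which is control, so they are called library 1 and library 2 after the numbers in their own titles. Each is a single pool with no replicate, no test between conditions was possible, and no p-value is given.

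CC chemokines are small secreted proteins that bind G protein-coupled receptors on leukocytes and steer their movement. Ccl2, Ccl7 and, in the mouse, Ccl12 act through Ccr2, which lets Ly6C-high monocytes leave the marrow and enter inflamed tissue. Ccl3, Ccl6 and Ccl9 act through Ccr1. Osteoclasts, the cells that resorb bone, form by fusion of precursors of the monocyte lineage, and in mouse and human cultures several of these ligands promote precursor migration or fusion.

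After calling, 9373 cells of library 1 and 11727 cells of library 2 remained, with a median of 3257 and 4413 unique molecular identifiers (UMIs) per cell, and 70 barcodes were called cells in both libraries. Clustering without the 10 genes gave 36 clusters, of which 33 took a name from marker lists, and 23 classes had at least 20 cells in each library. Levels are given as CPM, the UMIs of a gene in a class scaled to the total UMIs of that class, which allows comparison of classes but not of genes. The 95% intervals, exact Poisson for CPM and exact Clopper-Pearson for shares, cover counting error only. All 8 macrophage markers were raised at least 3-fold in the macrophage-like cells of library 1, and 7 of 8, all but Vsig4, in those of library 2. All 8 osteoclast markers were raised in the osteoclast-like cells of both libraries. The libraries stood apart in one respect that touches the family: 3 clusters of monocyte-, macrophage- and dendritic-like cells came nearly all from library 1, with genes of the interferon response among their leading genes.

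All 10 genes reached 20 UMIs in some class of each library. For 9 of the 10 the class with the highest level was the same in both libraries, and 54.6% of all 13855 measured genes did the same. Ccl7, Ccl8 and Ccl12 were at least 2-fold above the next class in both libraries, 3 of 10 genes against 11.6% of all measured genes. Macrophage-like cells were highest for Ccl2, Ccl7, Ccl8, Ccl12 and Ccl4 in both libraries. Basophil or mast-like cells led for Ccl6 and Ccl9, mature neutrophil-like cells for Ccr1, and conventional dendritic-like cells for Ccr2. Ccl3 was the exception, led by macrophage-like cells in library 1 and by basophil or mast-like cells in library 2.

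**Figure D1:**
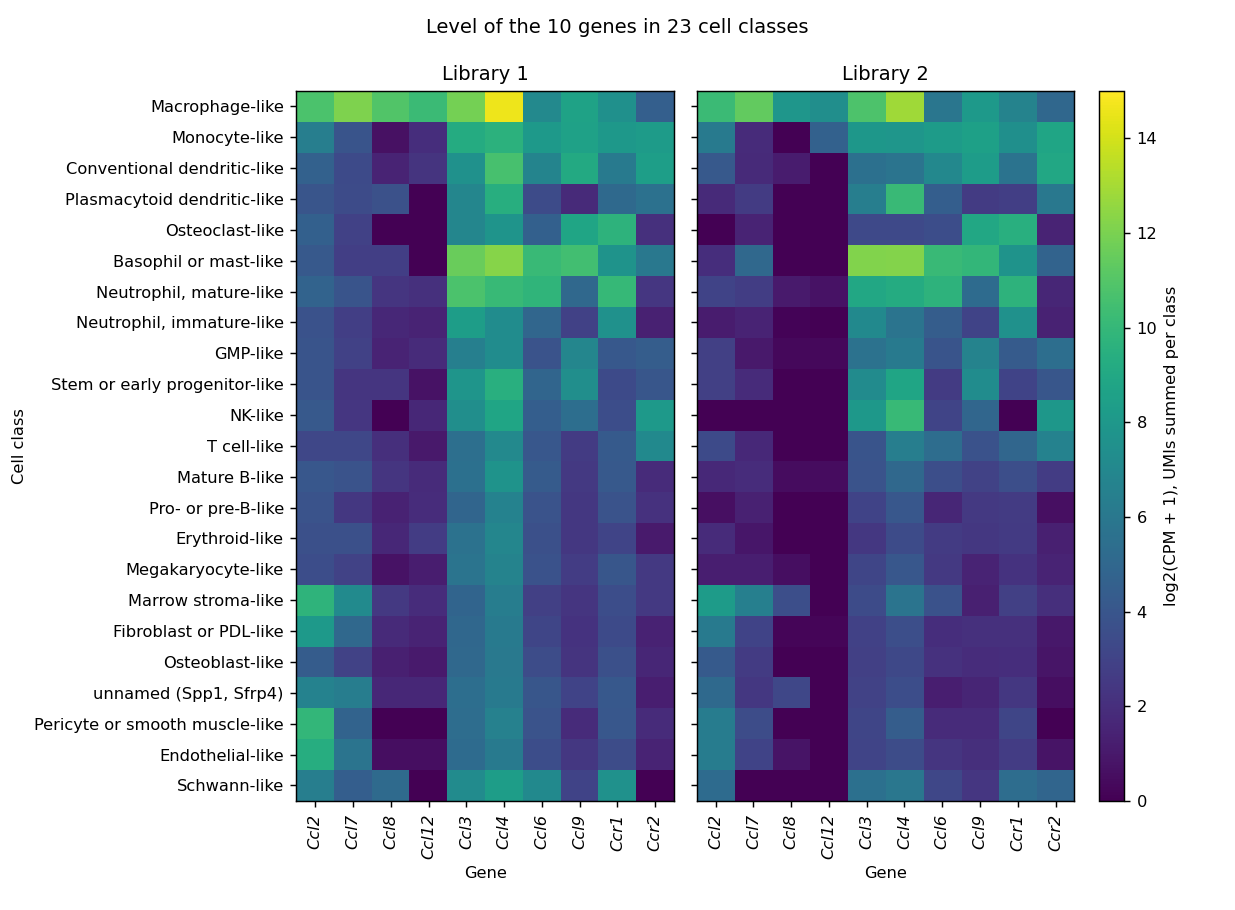
Level of each gene (columns) in 23 cell classes (rows) of library 1 and library 2, as log2(CPM + 1) of UMIs summed over the cells of a class. The top row, macrophage-like cells, is bright for Ccl2, Ccl7, Ccl8, Ccl12, Ccl3 and Ccl4 in both libraries, while Ccl8 and Ccl12 are dark in nearly every other row.

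Ccl7, a ligand of Ccr2 and other CC receptors, was mostly a transcript of macrophage-like cells. Its level was 4442 CPM (4312 to 4576) in macrophage-like cells of library 1 and 2690 CPM (2590 to 2793) in those of library 2. Among the ranked classes marrow stroma-like cells came next with 146 CPM in library 1 and 86.2 CPM in library 2. The ratio of the highest ranked class to the next was 30.5 in library 1 and 31.2 in library 2. An unnamed cluster led by Gdf15, Fcna and Spic, too small to be ranked, lay between these classes in both libraries. Alternatives that ranked a cluster led by these genes gave a smaller lead. In the library with the smaller lead it was 1.81 log2 at a minimum of 500 UMIs and 1.45 log2 at a clustering resolution of 2.0, against 4.93 log2 here. Macrophage-like cells were 1.09% and 1.15% of all cells and held 81.1% and 81.6% of all Ccl7 UMIs found in cells. After each cell was thinned to 1000 UMIs, 62.4% of 101 macrophage-like cells of library 1 and 38.1% of 134 of library 2 had a Ccl7 UMI. The unthinned shares were 71.6% and 54.1%. In B-lineage cells, which should lack the gene, the thinned share was 1.67% and 0.27%. Median depths were 9503 and 6622 UMIs in macrophage-like cells and 2068 and 2066 in B-lineage cells. The share in macrophage-like cells thus lay above this background in both libraries.

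Ccl8 and Ccl12 were also highest in macrophage-like cells, and very low elsewhere. Ccl8, which in the mouse is known as a ligand of Ccr8, stood at 1911 CPM (1826 to 1999) in macrophage-like cells of library 1 and 238 CPM (209 to 270) in those of library 2. Ccl12, a mouse ligand of Ccr2, stood at 1187 CPM (1120 to 1257) and 169 CPM (145 to 196) in the same cells. Both genes were several-fold higher in library 1. Next below came Schwann-like cells for Ccl8 in library 1, at 35.7 CPM from 5 UMIs, and marrow stroma-like cells in library 2, at 11.4 CPM. For Ccl12 the next class was erythroid-like cells in library 1, at 5.41 CPM from 5 UMIs, and monocyte-like cells in library 2, at 24.5 CPM. The runner-up values of library 2 came from very few cells. Of the 84 Ccl12 UMIs in monocyte-like cells 82 lay in 1 cell, and of the 30 Ccl8 UMIs in marrow stroma-like cells 22 lay in 1 cell. Macrophage-like cells held 94.1% of Ccl8 UMIs in library 1 and 78.0% in library 2, where marrow stroma-like cells held 9.71%. They held 92.2% of Ccl12 UMIs in library 1 and 63.1% in library 2. Within the class, 50% of Ccl8 UMIs lay in 7 of 102 cells of library 1 and in 5 of 135 cells of library 2. After thinning, 33.7% and 13.4% of macrophage-like cells had a Ccl8 UMI and 41.6% and 11.9% had a Ccl12 UMI, against 0.49% of B-lineage cells or less.

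Ccl8 and Ccl12 are neighbours on chromosome 11, in the order Ccl2, Ccl7, Ccl11, Ccl12, Ccl8, Ccl1, and Ccl9, Ccl6, Ccl3 and Ccl4 stand in that order after Ccl5 on the same chromosome. The 250 bases before the start of both genes are shown because these genes differed most between the libraries in macrophage-like cells. They are from RefSeq (GRCm38.p6, plus strand), at chr11:82114935-82115184 for Ccl8 and chr11:82101595-82101844 for Ccl12, and capitals mark TATAAA.
Ccl8: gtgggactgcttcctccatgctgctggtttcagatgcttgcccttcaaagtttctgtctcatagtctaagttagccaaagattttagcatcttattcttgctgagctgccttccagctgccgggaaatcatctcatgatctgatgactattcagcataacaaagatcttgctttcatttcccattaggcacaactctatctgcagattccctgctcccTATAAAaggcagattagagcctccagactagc
Ccl12: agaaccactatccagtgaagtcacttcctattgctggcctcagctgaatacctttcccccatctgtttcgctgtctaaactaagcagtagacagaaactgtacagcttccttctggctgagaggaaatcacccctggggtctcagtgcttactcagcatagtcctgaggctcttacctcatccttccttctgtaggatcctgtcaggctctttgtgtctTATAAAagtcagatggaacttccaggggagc
The match begins 32 bases before the start in Ccl8 and 31 bases before it in Ccl12. The promoter table held 7 of the 10 genes (Ccl8, Ccl12, Ccl3, Ccl6, Ccl9, Ccr1 and Ccr2, not Ccl2, Ccl7 and Ccl4), and the 3 motifs reported here were searched in these 250 bases on both strands. TATAAA was present in Ccl8, Ccl12 and Ccl9 and in 12.4% of all 32851 promoters. TGANTCA, the AP-1 type, was present in Ccl9 and in 6.75% of all. GAAANNGAA, a shortened form of the interferon-stimulated response element type, was present in Ccl3 and Ccr2 and in 7.13% of all, and was not matched in Ccl8 or Ccl12. This form was chosen after a form longer by a single A had been searched and had matched none of the 7 genes, so its matches depend on the length chosen. An NF-kappa-B type was also searched at first, matched Ccl9 and Ccr1, and was left out. In Ccl9 the TATAAA matches that begin 94 and 92 bases before the start, on opposite strands, overlap.

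Ccl2, the main ligand of Ccr2, was shared between macrophages and the stroma. Macrophage-like cells had 1741 CPM (1660 to 1825) in library 1 and 1193 CPM (1127 to 1263) in library 2. In library 1 pericyte or smooth muscle-like cells followed with 982 CPM (885 to 1086), marrow stroma-like cells with 858 CPM (811 to 906), endothelial-like cells with 639 CPM (606 to 673) and fibroblast or periodontal ligament-like cells with 275 CPM (262 to 289). In library 2 only marrow stroma-like cells stood clear of the rest, at 298 CPM (278 to 320). Pericyte or smooth muscle-like, endothelial-like, fibroblast or periodontal ligament-like and monocyte-like cells lay between 67.9 and 78.9 CPM there with overlapping intervals. The library 1 intervals of pericyte and stroma cells also overlapped, so their order is not fixed by these counts. Of all Ccl2 UMIs in cells, macrophage-like cells held 23.1% in library 1 and 31.3% in library 2, fibroblast or periodontal ligament-like cells 21.7% and 22.7%, marrow stroma-like cells 17.2% and 20.4%, and endothelial-like cells 19.1% and 7.86%. Osteoblast-like cells, which build bone, had 19.2 and 17.7 CPM. With thinning, 22.5% of endothelial-like cells of library 1 and 4.05% of those of library 2 had a Ccl2 UMI, against 1.77% and 0.27% of B-lineage cells. The pericyte level of library 1 leaned on few cells, since 1 of 88 cells held 29.9% of its 374 UMIs, and in marrow stroma-like cells of library 1 a single cell held 241 of 1279.

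**Figure D2:**
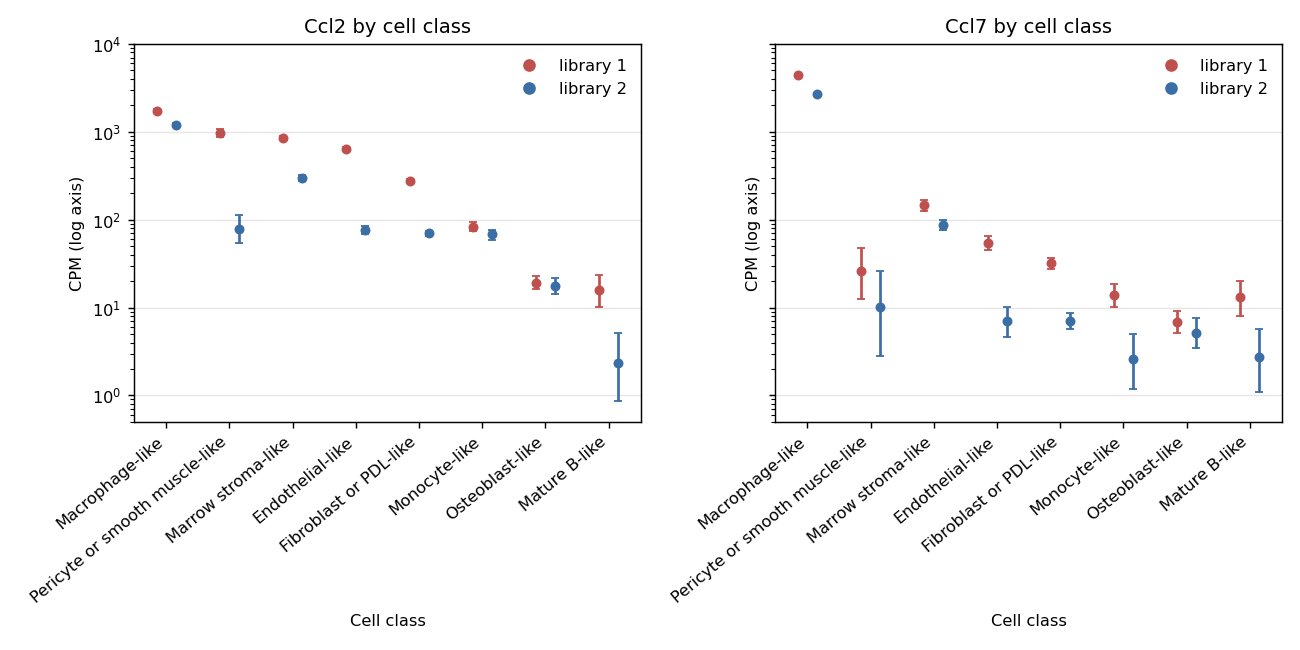
Ccl2 and Ccl7 in 8 cell classes, as CPM on a log axis with 95% Poisson intervals, library 1 left and library 2 right in each pair. Ccl2 ranges over 4 stromal and vascular classes between 275 and 982 CPM in library 1, whereas Ccl7 stands at 4442 CPM in macrophage-like cells and at 146 CPM in marrow stroma-like cells of the same library.

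Ccl2 was found more often in macrophage-like cells that also had Ccl7. Among thinned macrophage-like cells of library 1, 87.8% of the 49 cells with a Ccl2 UMI also had Ccl7, against 38.5% of the 52 without. In library 2 the shares were 73.9% of 46 and 19.3% of 88. Ccl12 was seen in 69.4% of library 1 cells with Ccl2 and in 15.4% of those without, and in 19.6% and 8.0% in library 2, where 9 cells had both and most cells with Ccl2 had no Ccl12 UMI. Ccl8 was seen in 44.9% and 23.1% in library 1 and in 15.2% and 12.5% in library 2. The class holds clusters that differ in all of these genes, so the shares were also taken within them. In the cluster led by C1qb, Ccl7 was seen in 73.7% of 19 library 1 cells with Ccl2 and 23.5% of 34 without, and in 73.3% of 45 and 18.4% of 87 in library 2. Ccl12 was seen there in 47.4% and 14.7% in library 1 and in 20.0% and 8.05% in library 2. These are shares of few cells with no test. Ccl9 was seen in 18.4% of cells with Ccl2 and 21.2% of those without in library 1, and in 15.2% and 18.2% in library 2, so it differed little between them.

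Ccl3, a ligand of Ccr1, and Ccl4, a related inflammatory chemokine, were spread over myeloid cells. Ccl4 was 25317 CPM (25005 to 25633) in macrophage-like cells of library 1 and 7414 CPM (7247 to 7583) in those of library 2. Among the ranked classes basophil or mast-like cells followed with 4964 and 4798 CPM. The unranked cluster led by Gdf15, Fcna and Spic lay above that basophil or mast-like level in library 1. Ccl3 was 3661 CPM (3543 to 3782) in macrophage-like and 3083 CPM (2825 to 3358) in basophil or mast-like cells of library 1. In library 2 macrophage-like cells had 1817 CPM (1735 to 1902) and basophil or mast-like cells had 4624 CPM (4400 to 4857). Basophils and mast cells are granulocytes known for IgE-triggered release. In this class 71.0% of 31 thinned cells of library 1 and 78.7% of 61 of library 2 had a Ccl3 UMI.

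Mature neutrophil-like cells held the largest share of Ccl3 UMIs by their number, 46.5% in library 1 and 22.8% in library 2, at 1750 and 513 CPM. The cluster of these cells led by Asprv1 and Il1b had 2319 CPM in library 1 and 1059 CPM in library 2, and the cluster led by Retnlg and Mmp8 had 895 and 290 CPM. NK-like cells had 442 CPM of Ccl4 in library 1 and 1092 CPM in library 2, where 3 of 97 cells held 50% of the 434 UMIs and 1 cell held 130 of them. Plasmacytoid dendritic-like cells had 672 and 1129 CPM. Free RNA carried both transcripts. Barcodes of 1 to 100 UMIs had 898 CPM of Ccl4 in library 1 and 246 CPM in library 2, and 9.75% and 2.29% of thinned B-lineage cells had a Ccl4 UMI. Levels near those of mature B-like cells, 211 and 32.8 CPM for Ccl4 and 45.2 and 13.3 CPM for Ccl3, were therefore not read as expression. Among the stromal classes the Ccl4 level ran from 65.4 to 94.5 CPM in library 1, below the mature B-like level, to which 1 cell gave 104 of 322 UMIs. In library 2 marrow stroma-like cells lay above the mature B-like level, with 64 of their 144 Ccl4 UMIs in 1 cell.

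Ccl6 and Ccl9, mouse ligands of Ccr1, shared basophil or mast-like cells as their highest class and parted below it. Ccl6 had 1125 CPM (972 to 1296) there in library 1 and 1151 CPM (1041 to 1270) in library 2, followed by mature neutrophil-like cells with 906 and 844 CPM and monocyte-like cells with 264 and 303 CPM. By number, mature neutrophil-like cells held 70.9% of Ccl6 UMIs in library 1 and 58.8% in library 2. The basophil level came from few cells, since 3 of 33 cells of library 1 held 50% of its UMIs and 35.5% of 31 thinned cells had any. Ccl9 had 1395 CPM (1223 to 1584) in basophil or mast-like cells of library 1 and 983 CPM (881 to 1093) in those of library 2. Conventional dendritic-like cells had 551 and 306 CPM, osteoclast-like cells 448 and 518 CPM, monocyte-like cells 386 and 369 CPM and macrophage-like cells 398 and 273 CPM. Intervals of the osteoclast-, macrophage- and monocyte-like classes overlapped in library 1, and in library 2 a single osteoclast-like cell held 68.9% of the 289 UMIs of its class. Monocyte-like cells held 37.9% of Ccl9 UMIs in library 1 and 27.1% in library 2, and granulocyte-monocyte progenitor-like cells 13.3% and 24.7%. In mature neutrophil-like cells, where Ccl6 was high, Ccl9 had 32.7 and 36.3 CPM.

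Ccr1 was highest in neutrophil- and osteoclast-like cells, and Ccr2 in dendritic- and monocyte-like cells. Ccr1, which binds Ccl3, Ccl6, Ccl9 and others, had 1049 CPM (1021 to 1077) in mature neutrophil-like cells of library 1 and 828 CPM (801 to 855) in those of library 2. Osteoclast-like cells came next with 837 CPM (737 to 946) and 691 CPM (623 to 763), monocyte-like cells had 255 and 177 CPM, and immature neutrophil-like cells had 190 CPM in both. Of the osteoclast-like cells, 42 in library 1 and 27 in library 2, 64.3% and 88.9% had a Ccr1 UMI, and 16 of 35 and 12 of 25 after thinning. Median depths of these cells were 2441 UMIs in library 1 and 9710 UMIs in library 2. The thinned shares had intervals of 28.8% to 63.4% and 27.8% to 68.7%, against 1.67% and 0.74% of B-lineage cells.

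Ccr2 had 346 CPM (298 to 399) in conventional dendritic-like and 301 CPM (283 to 320) in monocyte-like cells of library 1, and 508 CPM (460 to 560) and 457 CPM (435 to 480) in library 2. The intervals of the 2 classes overlapped in each library. NK-like cells followed with 263 and 249 CPM and T cell-like cells with 140 and 98.6 CPM. Monocyte-like cells held 59.5% of Ccr2 UMIs in library 1 and 51.5% in library 2. Osteoclast-like cells had 1 Ccr2 UMI in each library, 3.27 and 1.79 CPM, and macrophage-like cells had 22.2 and 30.6 CPM. The monocyte-like cells of the libraries came from different clusters, so the next shares also reflect their make-up. In the lineage, Ccr1 took 45.8% of the summed Ccr1 and Ccr2 UMIs in monocyte-like cells of library 1 and 28.0% in those of library 2. The share was 89.2% and 77.4% in macrophage-like cells and 99.6% and 99.7% in osteoclast-like cells. Among thinned monocyte-like cells, 59 of 369 in library 1 and 35 of 368 in library 2 had Ccr1 alone, 19.8% and 29.6% had Ccr2 alone, and 6.78% and 3.53% had both.

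**Figure D3:**
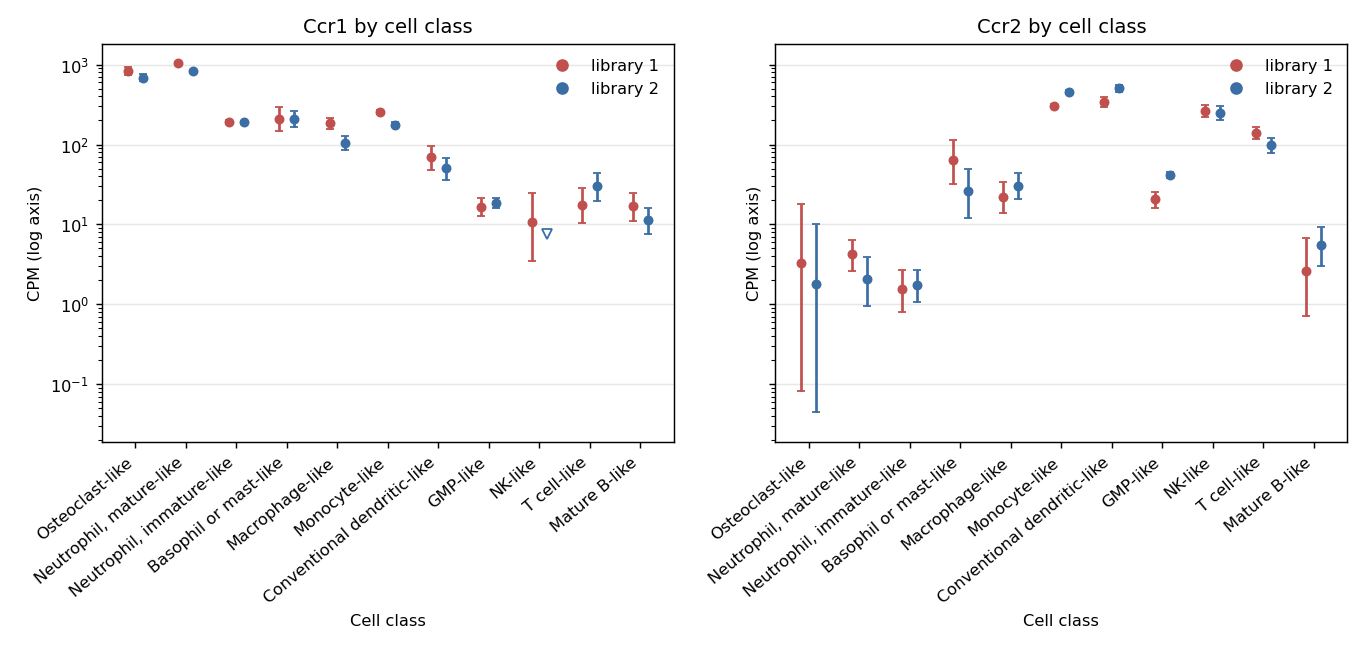
Ccr1 and Ccr2 in 11 cell classes, as CPM on a log axis with 95% Poisson intervals, library 1 left and library 2 right in each pair. The open triangle is the limit that a count of 0 allows (3 UMIs). Osteoclast-like cells sit at 837 and 691 CPM for Ccr1 and at 3.27 and 1.79 CPM for Ccr2.

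The libraries differed in the macrophage-like cells, 102 cells in library 1 and 135 in library 2. Of the 10 genes, 5 were past 2-fold higher in library 1 (Ccl8, Ccl12, Ccl4, Ccl6 and Ccl3) and none past 2-fold lower. Of all 5832 genes measured in this class, 5.71% were past 2-fold higher and 5.28% past 2-fold lower. The ratio of library 1 over library 2 was 8.02 (7.01 to 9.17) for Ccl8, 7.02 (5.98 to 8.24) for Ccl12, 3.41 (3.33 to 3.50) for Ccl4, 2.31 (1.70 to 3.15) for Ccl6 and 2.01 (1.90 to 2.13) for Ccl3. It was 1.65 for Ccl7, 1.46 for Ccl2 and for Ccl9, and 1.76 for Ccr1, while Ccr2 had 22 UMIs in library 1 and 31 in library 2. In the class where each gene was highest, 3 of the 10 genes (Ccl8, Ccl12 and Ccl4) were past 2-fold, all higher in library 1. The highest class of Ccl3 differed between the libraries. Basophil or mast-like cells were taken for it, by summed log levels of both libraries, and the ratio there was 0.67. In macrophage-like cells Ccl3 was past 2-fold, so the count depends on this choice. The share of all genes past 2-fold in either direction was 11% in macrophage-like, 8.13% in basophil or mast-like, 9.51% in mature neutrophil-like and 17.4% in conventional dendritic-like cells.

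These values differed between clusters of the class. One held 48 macrophage-like cells of library 1 and 2 of library 2, and its leading genes were Ccl8, Ccl7 and Ifnb1, the gene of interferon beta. In its library 1 cells Ccl8 stood at 3413 CPM (3243 to 3589), Ccl12 at 1648 CPM (1531 to 1772), Ccl7 at 7412 CPM, Ccl2 at 2720 CPM, Ccl3 at 6001 CPM and Ccl4 at 40073 CPM. The other cluster, led by the complement genes C1qb, C1qc and C1qa, held 54 cells of library 1 and 133 of library 2. There Ccl8 stood at 683 CPM (616 to 756) in library 1 and 235 CPM (206 to 267) in library 2, and Ccl12 at 810 CPM (736 to 889) and 171 CPM (146 to 198). In this second cluster alone the ratio of library 1 over library 2 was 4.75 (3.98 to 5.67) for Ccl12, 2.91 (2.47 to 3.43) for Ccl8, 1.98 (1.91 to 2.04) for Ccl4 and 1.10 (1.02 to 1.19) for Ccl3. For Ccl2 and Ccl7 the direction changed, with 0.80 (0.72 to 0.89) and 0.82 (0.77 to 0.88). Of the thinned cells, 56.2% of 48 in the Ifnb1 cluster had at least 3 of the 4 transcripts Ccl2, Ccl7, Ccl8 and Ccl12, against 18.9% of 53 and 8.33% of 132 in the C1qb cluster of library 1 and library 2.

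**Figure D4:**
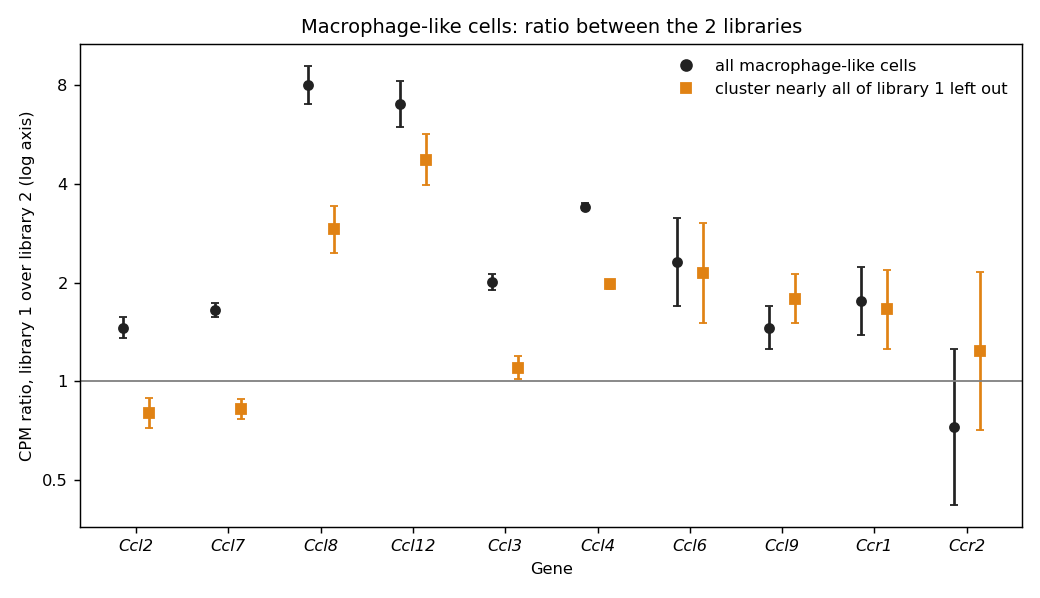
Ratio of library 1 over library 2 in macrophage-like cells for the 10 genes, on a log axis with 95% counting intervals, in all macrophage-like cells (circles) and with the cluster that came nearly all from library 1 left out (squares). Ccl8 and Ccl12 stay above 2, at 2.91 and 4.75, and Ccl2 and Ccl7 pass below 1, at 0.80 and 0.82.

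A list of 10 interferon response genes (Ifit1, Ifit2, Ifit3, Rsad2, Mx1, Isg15, Cmpk2, Oasl1, Irf7 and Usp18), chosen after the leading genes of the clusters were seen, was summed beside these values. It came to 34421 CPM in the Ifnb1 cluster of library 1, to 5680 CPM in the C1qb cluster of library 1 and to 1663 CPM in the C1qb cluster of library 2. Over classes the sum was higher in library 1 in 21 of 23, with 18604 and 2158 CPM in macrophage-like and 4425 and 573 CPM in monocyte-like cells. Osteoblast-like cells had 336 and 376 CPM and osteoclast-like cells 373 and 396 CPM. The 15 genes of handling and early response moved the other way in macrophage-like cells, with 12298 and 19964 CPM, although their sum was higher in library 1 in 17 of 23 classes. The part of either list in the chemokine levels was not tested.

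**Figure D5:**
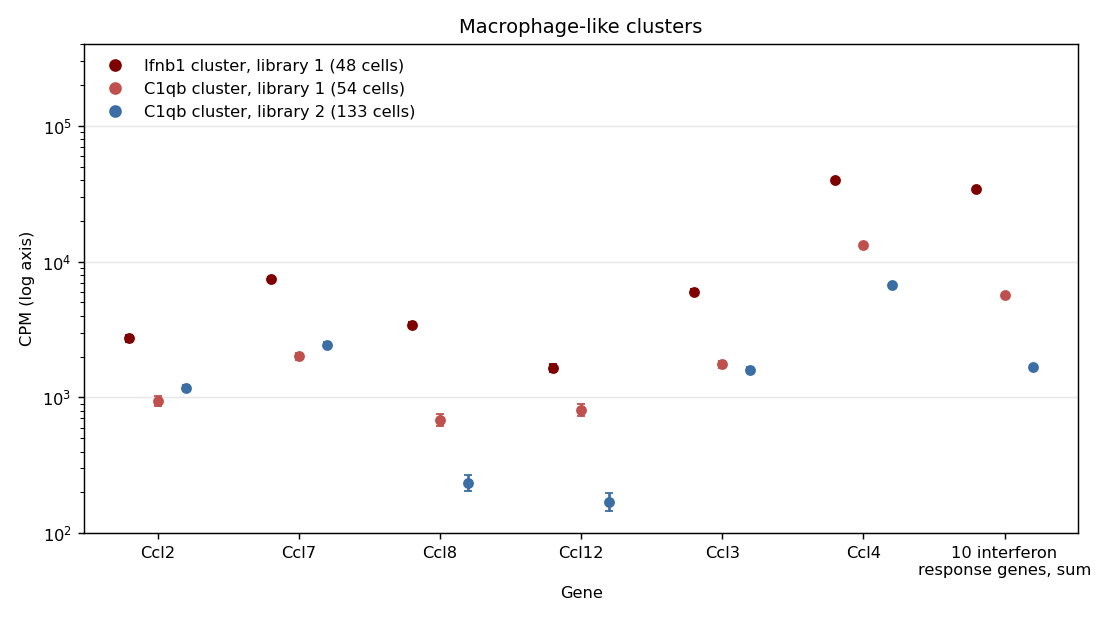
CPM on a log axis of 6 ligands and of the summed interferon response list in the macrophage-like clusters, with 95% Poisson intervals for the single genes. The Ifnb1 cluster of library 1 is highest for each, and the C1qb clusters of library 1 and library 2 lie close together for Ccl2, Ccl7 and Ccl3 and apart for Ccl8 and Ccl12.

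Over classes, Ccl2 was higher in library 1 in all 12 where it was measured. It was past 2-fold higher in marrow stroma-like, endothelial-like, fibroblast or periodontal ligament-like and mature neutrophil-like cells. Of all genes, 2.29%, 3.45%, 5.01% and 8.46% were past 2-fold higher in these classes, in that order. For the other classes of Ccl2 past 2-fold the share of all genes is not given, so no call is counted there. The Ccl2 level in mature B-like cells was 15.7 and 2.34 CPM, and in library 1 granulocyte-monocyte progenitor-like, early progenitor-like and immature neutrophil-like cells lay below it. The ratio was 12.4 in pericyte or smooth muscle-like cells, 8.38 (interval 7.40 to 9.48) in endothelial-like, 3.93 in fibroblast or periodontal ligament-like and 2.88 in marrow stroma-like cells, and it was 1.09 in osteoblast-like and 1.23 in monocyte-like cells. Few cells held these UMIs. In library 1 and library 2, 50% lay in 4 of 88 and 2 of 119 pericyte or smooth muscle-like cells and in 11 of 307 and 9 of 592 endothelial-like cells. For fibroblast or periodontal ligament-like cells it was 16 of 970 and 29 of 1825, and for marrow stroma-like cells 7 of 291 and 16 of 521. The direction turned in macrophage-like cells, to 0.80 (0.72 to 0.89), when the clusters nearly all from library 1 were left out. In monocyte-like cells the ratio was then 0.92 (0.75 to 1.11), an interval on both sides of 1. Within 4 monocyte-like clusters it was 1.18 (0.80 to 1.74), 2.27 (1.30 to 3.97), 0.66 (0.43 to 1.02) and 0.65 (0.45 to 0.95). Within the clusters of fibroblast or periodontal ligament-like cells it was 3.57 in the one led by Aspn and 7.21 in the one led by Igfbp6, which held 29 and 317 cells. Of the 6 genes measured in endothelial-like cells 5 were past 2-fold higher in library 1, against 3.45% of all genes there. Of the 7 measured in fibroblast or periodontal ligament-like cells 6 were, against 5.01%, and of the 5 in marrow stroma-like cells 2 were higher and 1, Ccl6, lower, against 2.29% and 3.06%. In endothelial-like and fibroblast or periodontal ligament-like cells Ccl3, Ccl4, Ccl6 and Ccr1 lay below their level in mature B-like cells of the same library, and were read as background. Ccl2 and Ccl7 lay above it. In marrow stroma-like cells the higher genes were Ccl2 and Ccl3. Ccl3, with 41 and 26 UMIs, lay below its mature B-like level in both libraries and was read as background. Ccl6 had 34 UMIs there in library 2, near its mature B-like level, and 50% of them lay in 3 cells. Ccl2 itself had 147 CPM in the free RNA of library 1 and 56.1 CPM in that of library 2. The list of 15 genes of handling and early response was 27436 and 21464 CPM in endothelial-like and 34572 and 22451 CPM in fibroblast or periodontal ligament-like cells, and its part was not tested.

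The monocyte-like cells numbered 380 and 369. Ccl4 and Ccl3 were higher there in library 1, with ratios of 3.52 (3.26 to 3.81) and 2.39 (2.21 to 2.59). Ccl7 had 47 UMIs in library 1 and 9 in library 2. Its library 1 level, 47 of 3402382 UMIs, was near that of mature B-like cells, 20 of 1526975, and was read as background. Ccl9 was level at 1.05 (0.97 to 1.13), Ccl6 was 0.87 (0.80 to 0.95), Ccr1 was 1.44 (1.29 to 1.59) and Ccr2 was 0.66 (0.61 to 0.71). That made 3 of 9 measured genes past 2-fold higher, Ccl7 at background level among them, against 4.59% of all genes. Past 2-fold lower was 1, Ccl12 with its 1 cell of library 2, against 1.69%. A monocyte-like cluster of 60 cells, all of library 1 and led by Ifit1bl1, Ms4a4c and Mx1, had 2573 CPM of Ccl4, 497 CPM of Ccr1 and 355 CPM of Ccr2. Without it the Ccr2 ratio was 0.64 (0.59 to 0.70) and that of Ccl4 was 2.33 (2.14 to 2.54). The other 4 clusters were shared unequally: the one led by Msr1 and Adora2b held 176 and 48 cells, and the one led by Ms4a4c and Ctss held 31 and 156. Taken cluster by cluster, a comparison added after seeing the data, the Ccr2 ratio was below 1 in 4 of 4. It was 0.65 (0.56 to 0.75), 0.77 (0.65 to 0.92), 0.92 (0.74 to 1.13) and 0.98 (0.75 to 1.29). The intervals of the last 2 lay on both sides of 1. The direction of Ccr1 turned in 3 of the 4, with ratios of 0.31 (0.21 to 0.47), 0.56 (0.41 to 0.77) and 0.69 (0.40 to 1.20), and it was 1.10 (0.91 to 1.34) in the Msr1 cluster. Ccl4 ran from 1.03 (0.88 to 1.20) in the Msr1 cluster to 3.64 (3.10 to 4.27), and Ccl3 from 0.82 (0.71 to 0.95) in the Msr1 cluster to 8.84 (6.96 to 11.2). Ccl9 ran from 0.72 to 1.30 and Ccl6 from 0.75 to 1.33. The Ccr1 ratio of the whole class, 1.44, was thus above that in each of these 4 clusters.

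In conventional dendritic-like cells Ccl4 had 1614 CPM in library 1 and 54.3 CPM in library 2, a ratio of 29.7 (22.0 to 40.2). Without the cluster of 40 such cells of library 1 and 1 of library 2 the levels were 299 and 55.2 CPM and the ratio 5.42 (3.74 to 7.84). Basophil or mast-like cells had none of 5 measured genes past 2-fold in either direction, against 8.13% of all 2153 genes measured there. In osteoclast-like cells the ratio was 1.21 (1.03 to 1.42) for Ccr1 and 0.86 (0.70 to 1.06) for Ccl9. Ccl3 and Ccl4 were higher there in library 1, on few UMIs. They had 36 and 66 UMIs in library 1, of which a single cell held 14 and 30. The Ccl4 level of library 1 was near that of mature B-like cells and was not read as expression. The share of all genes past 2-fold is not given for that class, so no call is counted. In mature neutrophil-like cells the ratio was 3.41 (3.26 to 3.57) for Ccl3, 1.87 for Ccl4, 1.27 for Ccr1 and 1.07 for Ccl6, and the median of all genes there was itself shifted by 0.24 on the log2 scale towards library 1. The cluster led by Asprv1 and Il1b made up 1456 of 2206 of these cells in library 1 and 498 of 1329 in library 2. Within it and within the Retnlg cluster the Ccl3 ratio was 2.19 (2.07 to 2.32) and 3.09 (2.85 to 3.34), the Ccl4 ratio 1.22 and 1.25, and the Ccr1 ratio 1.11 in both. Ccl6 turned direction, to 0.70 (0.67 to 0.74) and 0.84 (0.77 to 0.91). The shift of the median of all genes was 0.22 in immature neutrophil-like, 0.76 in erythroid-like and -0.19 in conventional dendritic-like cells and at most 0.10 in size in the other classes.

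Among 26 other ligands and receptors of the CC system, all were found and 15 reached the UMI minimum. The libraries shared the leading class for 8, and 7 exceeded the next class at least 2-fold in each library. Ccr9, itself a marker used to name the class, had 922 and 1390 CPM in plasmacytoid dendritic-like cells. Ackr1, a scavenging receptor of venular endothelium, had 185 and 214 CPM in endothelial-like cells, and Ccl19, a ligand of Ccr7, had 59.0 and 51.7 CPM in marrow stroma-like cells. Ccl22, a dendritic cell chemokine, had 332 and 60.5 CPM in conventional dendritic-like cells. Ccl5, a ligand of Ccr1, had 6394 and 8018 CPM in NK-like cells, Ccr6 had 30.1 and 14.8 CPM in mature B-like cells, and Ccr10 had 8.46 and 5.30 CPM in granulocyte-monocyte progenitor-like cells. The Ccr10 lead is not resolved by these counts: the next class of library 1 had 0 UMIs, so the ratio of 2.37 (0.15 to 38.7) was set by the floor of 0.5 UMIs, and the ratio in library 2 was 2.28 (0.56 to 9.35). These 7 are named because they passed that limit, and Ccl22 and Ccr6 differed most between the libraries among them.

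Genes outside the family whose pattern was most like that of each member were ranked by Pearson's r of log2(CPM + 1) over 46 points, the 23 classes of both libraries, which share depth and scaling within a library. For Ccl2 they were Cxcl1 (r = 0.83), Hmox1 and Sult1a1, and for Ccl7 Gm14221 (0.76), Cbr2 and Gdf15. For Ccl8 they were Ifnb1 (0.80), Fcrl2 and Folr2, and for Ccl12 the complement genes C1qb (0.89) and C1qc and the transcript Gm56557. C1qb and C1qc are themselves markers used to name the macrophage-like class. Ccl3 and Ccl4 shared Nlrp3 and Lilrb4b in their lists, with Lilrb4b first for Ccl3 (0.88) and Nlrp3 first for Ccl4 (0.81), completed by Lilrb4a and by Tnf. Ccl6 was closest to Il1b (0.89), Nlrp3 and Cyp4f18, and Ccl9 to Gm11425 (0.84), Galnt6 and Lat2. Ccr1 was closest to Lrrc25 (0.84), Rhov and Pirb, and Ccr2 was closest to Ms4a6b (0.89), with Lpxn also among its 3 genes.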

How the data were processed

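The deposited files hold raw UMI counts per gene and barcode of 2 libraries as sparse matrices, and per the labels each was a pool of bone from several mice. FastQC 0.11.9 and the builds GRCh38 and mm10 appear, with no role stated, per the submitters' processing notes. Which aligner and counting program were used, and whether strand was, is not given in the sources used here. Features with no symbol, 0.602% and 0.431% of UMIs, were left out. Named-gene UMIs came to 77572847 and 116775367 over all barcodes.

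A barcode was called a cell from the larger of 500 UMIs and the inflection of the rank curve, at 810 and 983 UMIs, with at least 200 genes and at most 20% mitochondrial UMIs. Scrublet marked only 1 cell in each library, so its call had not worked and the 5% of cells with the highest scores, 493 and 617, were removed. Doublets may remain. Both libraries were clustered together in scanpy 1.11.5 (2000 variable genes without the 10 members, 30 principal components, 15 neighbours, Leiden resolution 1.0), and phagocytes again among themselves with 1000 variable genes. A cluster was named where at least 3 markers and 50% of a list were raised 3-fold, limits taken from earlier work on these data. Samples were put in no group. Members, lists and tests were chosen with earlier results of these data known. A gene was measured with at least 20 UMIs in some class of each library, and for a ratio of libraries with an average of 20 UMIs per library in that class. Classes of at least 20 cells in each library were ranked, ratios used a floor of 0.5 UMIs, and thinning to 1000 UMIs left out 456 and 47 cells. All 10 members are named, other CC genes where 2-fold above the next class in both libraries, and 3 most similar genes per member. One gene is not reported here. The ranking of classes was tested on simulated counts. TMM scaling used edgeR 4.0.16. Transcripts of 8 members shared no 31-base word in their last 500 bases with another gene in GENCODE M21, and Ccl6 (1.33% of words, with Slc17a4) and Ccl9 (0.477%, with Gm33246) shared few. Alternatives changed the cell minimum, doublets, clustering, naming, scaling, free RNA, class size and gene minimum. The interferon-type motif was shortened, and an NF-kappa-B type dropped, after their matches were known.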

Additional observations from a re-analysis of the deposited data

Results flagged for a closer look

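Transcripts of the 10 genes also appeared in barcodes of 1 to 100 UMIs, which no class holds. They came to 27710 UMIs in library 1 and 10976 UMIs in library 2, above the limit that a count of 0 allows, which puts the family in the RNA outside called cells. There are no control samples against which to set these counts.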

How the results depend on the processing

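No paired analysis was possible because the libraries carry no group and no replicate. The count of 9 genes with a shared highest class lay between 7 and 9 in every alternative that gave it, with 7 at a minimum of 500 UMIs and 8 at 2000 UMIs. The count of 3 genes at least 2-fold above the next class became 5 with cells thinned to 1000 UMIs, 5 with TMM-scaled totals and 7 with classes of at least 50 cells, which leaves out the osteoclast- and basophil or mast-like classes among others. The count of 3 genes unequal between libraries became 5 past 1.5-fold, and it was 4 with thinned cells or without the second clustering and 2 without the clusters nearly of 1 library. Some leads of the highest class over the best other class, as log2 in the library where they were smaller, changed sign. Ccl2 went to -0.12 at a minimum of 500 UMIs (marrow stroma-like cells ahead) and to -0.062 without the clusters nearly of 1 library, an alternative chosen after seeing the data. Ccr1 went to -0.042 at 500 UMIs and -0.38 with each cell placed on its own by marker UMIs. That placement also gave -2.22 for Ccl9 and -1.22 for Ccr2, and Ccr2 was -0.081 with each library clustered on its own. Ccl6 was -0.90 with TMM-scaled totals. For Ccl3 the lead of basophil or mast-like cells, -0.25 in library 1, became 0.24 at a minimum of 2000 UMIs and 0.82 without the clusters nearly of 1 library. At 2000 UMIs no class named macrophage-like was ranked, and the best other class was an unnamed one led by C1qb, C1qa and C1qc. The cause of these changes of sign was not tested. The leads of Ccl7, Ccl8 and Ccl12 stayed at 1.45 log2 or more wherever macrophage-like cells were ranked. Of the single leads under the alternatives, 83 moved by less than the counting error, 46 moved by more and 10 changed sign. At a minimum of 2000 UMIs macrophage- and conventional dendritic-like cells were not ranked and gave no lead, and neither did conventional dendritic-like cells without doublet removal or without the second clustering. Classes of under 50 cells limit the precision of the osteoclast and basophil values.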

Other observations

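A cluster that took no name held 18 cells of library 1 and 51 cells of library 2, too few in library 1 to be ranked, and was led by Gdf15, Fcna and Spic. Its leading genes also included C1qa, C1qb, C1qc, Mrc1 and Apoe, which are on the macrophage marker list, and 6 of 6 erythroid markers were raised in it. Ccl7 stood at 748 CPM in its library 1 cells and at 366 CPM in those of library 2, from 55 and 103 UMIs. Ccl4 stood at 7055 and 1361 CPM, while Ccl8 had 1 UMI in each library. Another unnamed cluster, led by H2-Eb1, H2-Ab1 and Ctss, held 14 and 123 cells. Ccl6 stood at 321 and 550.1 CPM in it, from 16 and 305 UMIs, Ccl9 at 281 and 335 CPM, and Ccr2 at 100.4 and 305 CPM, where the library 1 value rests on 5 UMIs.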
